A study of Mus musculus with 6 samples.

Results

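The 8 genes described here encode transcription factors that give the segments of the kidney tubule their identity: Hnf4a, Hnf4g, Pax2, Pax8, Lhx1, Maf, Tfap2b and Esrrg. They were chosen by gene symbol from a table of 19087 genes, and all 8 were found in it. RNA was sequenced from kidney tissue of wild-type mice in 6 libraries, 3 from mice given cisplatin and 3 from control mice. Cisplatin is a platinum compound that damages DNA and injures tubule cells, and it was given by intraperitoneal injection as a model of acute kidney injury. The series concerns what makes mice on a high-fat diet sensitive to such injury. The sources used here do not give dose, time after injection, age, sex, strain or diet. Nothing in the labels states that libraries are separate animals, and p-values therefore measure only the spread among these libraries, which may be technical.

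The tubule is built from an epithelium specified in the embryo by Pax2, Pax8 and Lhx1. Its segments then mature under factors such as the nuclear receptors of the HNF4 family in the proximal tubule and AP-2 beta (Tfap2b) and estrogen-related receptor gamma (Esrrg) farther along the nephron. In injured kidneys, proximal cells are known to lose mature functions and to take up parts of an embryonic programme.

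Estimated counts summed to between 17776018 and 18523666 per library in cisplatin and between 16725665 and 17351755 in control. Along the leading principal component (80.5% of the variance), cisplatin replicate 3 lay nearest to the controls of the cisplatin libraries, at -38.4 against -52.9 and -60.9, with the controls at 53.0, 50.5 and 48.6. Over the 14392 genes tested, edgeR called 3326 genes higher in cisplatin and 3201 genes lower (adjusted p under 0.05). Scaling to library size alone, without composition factors, shifted the median log2 fold change over all genes by 0.14, and 67.0% of its calls were higher, against 51.0% here.

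Of the 8 factors, 4 were lower and 1 was higher in cisplatin. Lhx1, Tfap2b, Hnf4a and Maf fell by 0.78, 0.76, 0.71 and 0.50 on the log2 scale, and Pax8 rose by 0.50. Hnf4g, Esrrg and Pax2 did not pass the test. All 8 passed the filter on low counts. Of all genes tested, 22.2% were called lower, 23.1% higher and 45.4% in either direction, against 50.0%, 12.5% and 62.5% of the 8 factors. The median log2 fold change was -0.38 over the 8 factors and 0.01 over all genes tested. No factor changed by 2-fold, whereas 12.8% of all genes were called with at least that change. These are libraries of bulk tissue, in which fewer cells of a type and less RNA per cell cannot be told apart.

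**Figure D1:**
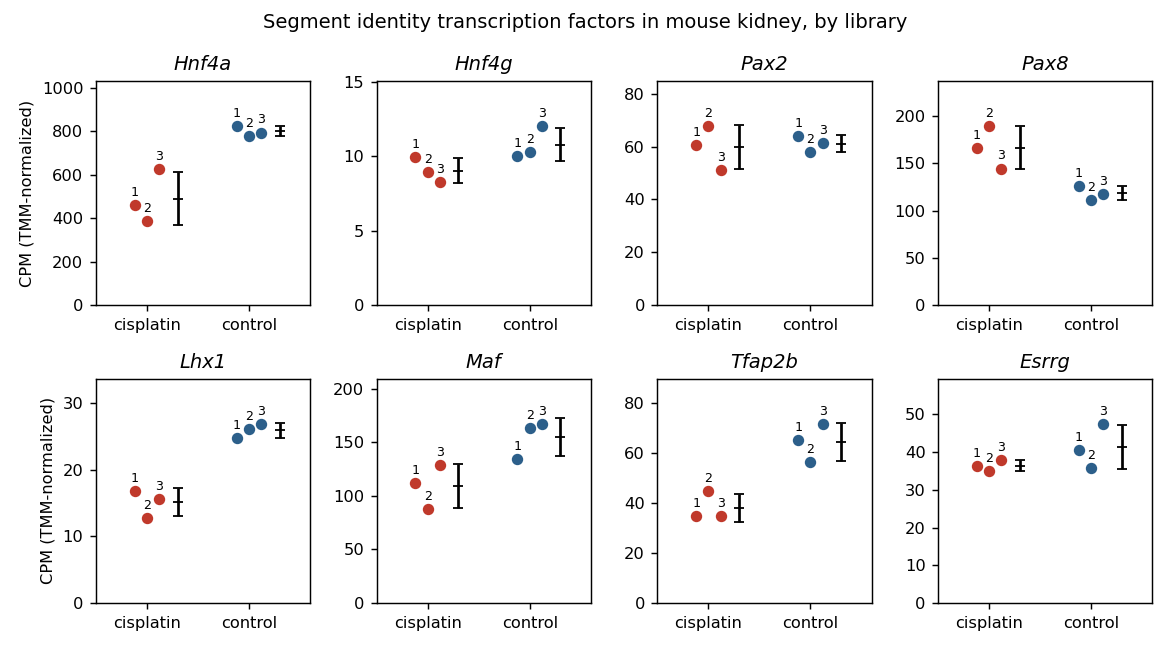
Normalized read count of each factor in CPM (read counts scaled to library size with TMM factors), on linear axes that start at 0. Points are single libraries, numbered by replicate, and the black bar beside them is the mean ± 1 SD (n = 3 per group). Cisplatin and control points of Hnf4a, Lhx1, Maf, Tfap2b, Pax8 and Hnf4g do not overlap, and those of Pax2 and Esrrg do. The groups were likewise apart in 57.6% of all genes tested, and those of Maf and Hnf4g overlapped in the authors' TPM.

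Hnf4a encodes hepatocyte nuclear factor 4 alpha, the nuclear receptor that in mice is needed for proximal tubule cells to mature. The gene (Entrez 15378) spans chromosome 2, 163506811 to 163572907, in build GRCm38.p6. It had 459, 386 and 626 CPM in cisplatin replicates 1 to 3, against 825, 779 and 794 CPM in control replicates 1 to 3. Every cisplatin library lay below every control, and the cisplatin libraries were spread far wider than the controls (490 ± 123 against 799 ± 23 CPM; SD, n = 3 each). The log2 fold change was -0.71 (SE 0.17; edgeR, adjusted p = 0.00978).

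Its paralog Hnf4g was expressed at a far lower level. It spans chromosome 3, 3508030 to 3659800 (Entrez 30942). It had 9.94, 8.92 and 8.29 CPM in cisplatin and 10.01, 10.29 and 12.05 CPM in control, from 147 to 197 reads per library. The groups did not overlap in CPM, as in 57.6% of all genes tested, but they overlapped in the authors' TPM (3.55 to 4.54 in cisplatin and 3.76 to 4.63 in control), and the difference of -0.25 on the log2 scale (SE 0.13) did not pass the test (edgeR adjusted p = 0.140). Within each library the log2 ratio of Hnf4g to Hnf4a, from the authors' TPM (transcript abundance scaled by length and depth), was -5.47, -5.38 and -6.15 in cisplatin and -6.28, -6.18 and -5.99 in control. The groups overlapped because cisplatin replicate 3 lay among the controls. The ratio averaged 0.48 higher in cisplatin (two-sided exact permutation p = 0.2, where 3 against 3 libraries cannot give less than 0.1).

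RefSeq gives Hnf4a 2 transcription starts, of which the downstream one is known to serve adult liver and kidney; the table does not tell them apart. The 250 bases before the upstream start (chr2:163506607-163506856, plus strand, GRCm38.p6) and before the downstream start (chr2:163546905-163547154, plus strand) are printed 5′ to 3′ because Hnf4a had the highest level of the 8 factors. Those of Tfap2b (chr1:19211804-19212053, plus strand), Lhx1 (chr11:84525535-84525784, minus strand) and Pax8 (chr2:24475600-24475849, minus strand) are shown because these factors also changed and have 1 window each. The Tfap2b window lies inside the annotated span of the gene, which begins at 19208908, so it may not precede the first start. The upstream Hnf4a window likewise runs past 163506811, where the span of Hnf4a begins. Capitals mark matches, on either strand, to any of 6 motifs: the HNF4 site AAAGTCCA, the estrogen-related receptor half-site AAGGTCA, the AP-2 site GCCNNNGGC, the LIM homeodomain site TAATTA, the MAF half-site TGCTGAC and the PAX paired-domain core GTCACGC.
Hnf4a upstream: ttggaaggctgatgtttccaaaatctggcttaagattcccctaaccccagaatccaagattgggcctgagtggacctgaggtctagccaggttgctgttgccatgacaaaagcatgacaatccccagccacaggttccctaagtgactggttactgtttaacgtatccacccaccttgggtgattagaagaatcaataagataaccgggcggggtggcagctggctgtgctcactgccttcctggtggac
Hnf4a downstream: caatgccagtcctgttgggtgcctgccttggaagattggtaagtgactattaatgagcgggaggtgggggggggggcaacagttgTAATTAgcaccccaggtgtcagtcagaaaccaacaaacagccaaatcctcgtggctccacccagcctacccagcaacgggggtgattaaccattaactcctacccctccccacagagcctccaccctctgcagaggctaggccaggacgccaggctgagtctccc
Tfap2b: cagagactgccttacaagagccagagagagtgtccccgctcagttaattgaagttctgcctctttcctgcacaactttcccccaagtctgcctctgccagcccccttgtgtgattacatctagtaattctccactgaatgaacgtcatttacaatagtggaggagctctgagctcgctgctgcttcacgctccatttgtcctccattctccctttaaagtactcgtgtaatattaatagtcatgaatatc
Lhx1: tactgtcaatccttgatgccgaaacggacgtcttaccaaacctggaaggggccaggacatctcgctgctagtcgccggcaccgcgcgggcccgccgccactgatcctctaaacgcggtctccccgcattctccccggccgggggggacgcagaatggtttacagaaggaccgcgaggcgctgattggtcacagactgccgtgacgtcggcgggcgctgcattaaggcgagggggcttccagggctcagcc
Pax8: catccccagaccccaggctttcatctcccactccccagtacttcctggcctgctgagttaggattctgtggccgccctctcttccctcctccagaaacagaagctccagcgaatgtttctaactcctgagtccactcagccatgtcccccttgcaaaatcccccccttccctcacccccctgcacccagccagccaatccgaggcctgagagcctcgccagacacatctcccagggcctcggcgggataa
The downstream Hnf4a window held a LIM homeodomain site 165 bases before the start, and 4.84% of 32851 such windows of all genes held at least 1. None of the 6 motifs was found in the other 4 printed windows. The other motifs occurred in 1.01% (HNF4), 4.08% (estrogen-related receptor), 13.7% (AP-2), 3.81% (MAF) and 1.78% (PAX) of all windows. RefSeq windows were found for 6 of the 8 factors, 12 in all; of those not printed, 1 Pax2 and 1 Esrrg window held an AP-2 site.

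Of the paired-box factors Pax8 and Pax2, which act together in forming the nephron, Pax8 rose and Pax2 did not pass the test. Pax8 (Entrez 18510, chromosome 2, 24420551 to 24475599) had 166, 190 and 145 CPM in cisplatin, against 126, 111 and 118 CPM in control. All 3 cisplatin libraries lay above all controls. It was the 1 factor of the 8 that rose, by 0.50 on the log2 scale (SE 0.11; edgeR, adjusted p = 0.00640).

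Pax2 (Entrez 18504, chromosome 19, 44746601 to 44838269) had 60.6, 67.8 and 51.3 CPM in cisplatin and 64.1, 57.8 and 61.5 CPM in control. The groups overlapped fully, with the highest and the lowest value both in cisplatin. The estimate of -0.03 on the log2 scale (SE 0.11) did not pass edgeR's test (adjusted p = 0.844) and was 0.11 with scaling to library size. The log2 ratio of Pax2 to Pax8 within a library, from the authors' TPM, was -2.05, -2.08 and -2.09 in cisplatin, against -1.57, -1.53 and -1.53 in control. Replicates lay close together on this ratio in both groups. The ratio was 0.52 lower in cisplatin, with no overlap (two-sided exact permutation p = 0.1, the smallest that 3 against 3 libraries allow).

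Lhx1, a LIM homeodomain factor that patterns the early nephron, is kept at a low level in the adult kidney. The gene (Entrez 16869) spans only 7.56 kb of chromosome 11, from 84517975 to 84525534. It had 16.9, 12.8 and 15.7 CPM in cisplatin, against 24.7, 26.1 and 27.0 CPM in control. No cisplatin library reached the lowest control. At -0.78 (SE 0.11) its log2 fold change was the most negative of the 8, with an adjusted p of 0.000923 in edgeR.

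Maf encodes the basic leucine zipper factor c-Maf, known from the proximal tubule and from macrophages and T cells. The gene (Entrez 17132) spans chromosome 8, 115703253 to 115706894. It had 112, 87.7 and 128 CPM in cisplatin and 135, 163 and 168 CPM in control. The groups did not overlap in CPM, but cisplatin replicate 3 came close to control replicate 1; in the authors' TPM they overlapped, at 46.8 to 61.8 in cisplatin and 58.5 to 74.0 in control. The log2 fold change was -0.50 (SE 0.15; edgeR, adjusted p = 0.0246). The call was lost in edgeR without cisplatin replicate 1 (adjusted p = 0.0667), control replicate 2 (0.0826) or control replicate 3 (0.0838), and with limma on the authors' FPKM (0.0591 and 0.0647 with pseudocounts of 0.1 and 1); over all 13 alternatives the adjusted p ranged from 0.00462 to 0.0838.

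Markers of T cells and macrophages, which also express Maf, were read beside it. The 4 T cell markers in the table summed to between 1.01 and 1.47 CPM in cisplatin and between 3.06 and 7.58 CPM in control. Cd3g, a subunit of the T cell receptor complex, had 16 reads over cisplatin and 95 over control. Among the 7 macrophage markers edgeR called 2 higher, led by Cd68 (log2 fold change 3.04), and 1 lower, Csf1r, the receptor for colony stimulating factor (46.8 ± 2.5 CPM in cisplatin and 80.4 ± 7.6 CPM in control; SD, n = 3 each). The median log2 fold change of the 7 was -0.27. The macrophage sums overlapped, at 227 to 265 CPM in cisplatin and 178 to 233 CPM in control. No marker of either list in the table was at 0 in all libraries, and the part of these cells in the Maf result was not tested.

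Tfap2b, which encodes the AP-2 beta factor of the distal nephron, fell. The gene (Entrez 21419) spans chromosome 1, 19208908 to 19238845. It had 34.9, 44.5 and 34.7 CPM in cisplatin, against 64.9, 56.3 and 71.7 CPM in control. The groups were clearly apart, and the log2 fold change was -0.76 (SE 0.13; edgeR, adjusted p = 0.00191).

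Esrrg, the estrogen-related receptor gene that drives mitochondrial and transport genes, is by far the longest of the 8, at 606 kb of chromosome 1 (Entrez 26381, 187608510 to 188214885). It had 36.3, 34.9 and 37.9 CPM in cisplatin and 40.7, 35.9 and 47.6 CPM in control. The groups overlapped, and the log2 fold change of -0.19 (SE 0.11) did not pass the test (edgeR adjusted p = 0.183). Of the 84 tested genes at least as long, 52.4% were called lower, with a median log2 fold change of -0.60, against 22.3% of the 14357 tested genes with an annotated length. Among the 2728 genes no longer than Lhx1, 22.1% were called lower. Esrrg, Hnf4a, Pax2 and Pax8 overlap other annotated genes, none of which is among the genes of the table, and no source used here states the strandedness of the libraries. These overlaps are of whole gene spans, and exons were not compared. Whether the Hnf4a count holds reads of its antisense neighbour Hnf4aos can therefore not be told.

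Within the cisplatin group the factors did not follow one order over the libraries. Relative to the control mean, Hnf4a lay at -0.80, -1.05 and -0.35 and Maf at -0.47, -0.82 and -0.27 on the log2 scale in cisplatin replicates 1 to 3. Both were lowest in replicate 2 and highest in replicate 3. The summed level of 10 markers of the first proximal segments (S1 and S2) had that same order, at -1.64, -2.10 and -1.11. Pax8 had the reverse order, at 0.49, 0.68 and 0.29. Tfap2b, at -0.88, -0.53 and -0.89, was highest in replicate 2, and so was the sum of 8 markers of the thick ascending limb, at -1.79, -1.17 and -2.10. The sum of the 7 distal convoluted and connecting tubule markers, at -0.97, -0.96 and -0.63, was highest in replicate 3. The S3 marker sum, at -0.51, -0.41 and -0.48, was highest in replicate 2, unlike that of S1 and S2. That list of 5 was mixed, with 4 lower and 1 higher, and its markers did not share one order. Slc7a13 had 46.5, 41.4 and 90.1 CPM in cisplatin replicates 1 to 3, in the order of S1 and S2. The sums of fibroblast and pericyte markers (0.57, 0.83 and 0.057) and of macrophage markers (0.27, 0.37 and 0.14) had the order of Pax8. The macrophage markers did not rise as a set, with a median log2 fold change of -0.27. Their sum holds Cd68, at 86.6, 85.3 and 62.0 CPM in cisplatin and 7.87, 10.2 and 10.4 CPM in control. Lhx1 was lowest in replicate 2, at -0.62, -1.02 and -0.73, and Esrrg differed little, at -0.19, -0.25 and -0.13. Along the leading principal component of all genes tested (80.5% of the variance), replicate 2 also lay farthest from the controls and replicate 3 nearest. Cisplatin replicates 1 to 3 stood there at -52.9, -60.9 and -38.4. The order of Hnf4a, Maf, Pax8 and the S1 and S2 markers is therefore not particular to these genes. All these orders rest on 3 libraries and were not tested.

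**Figure D2:**
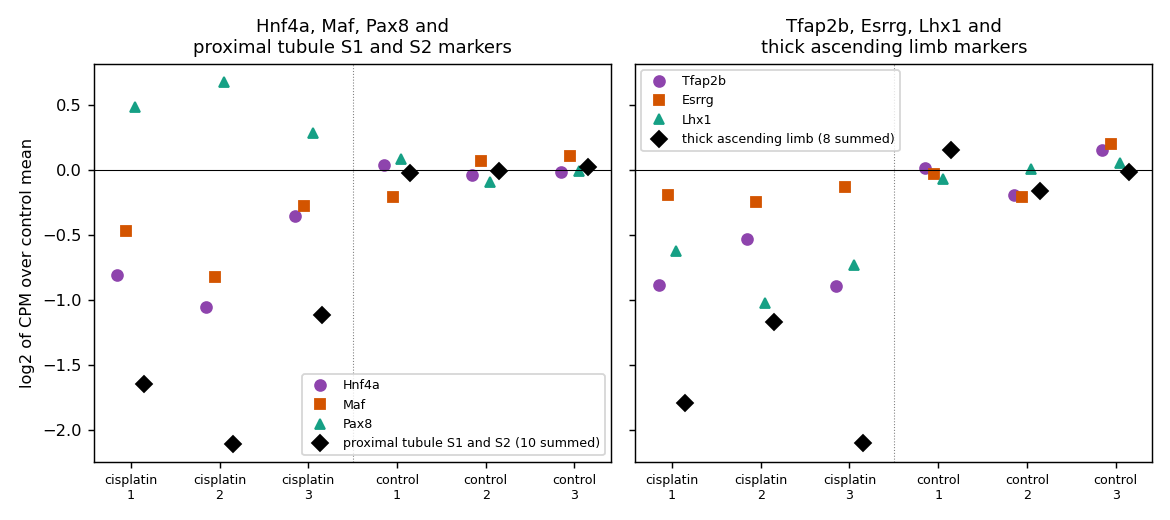
Log2 of the CPM in each library over the control mean, for Hnf4a, Maf and Pax8 beside the summed S1 and S2 markers (left) and for Tfap2b, Esrrg and Lhx1 beside the summed thick ascending limb markers (right). Each point is 1 library, and the dotted line divides the cisplatin from the control libraries. Hnf4a, Maf and the S1 and S2 markers are lowest in cisplatin replicate 2, where Pax8, Tfap2b and the limb markers are highest of the 3 cisplatin libraries. Cisplatin replicate 2 also lay farthest from the controls along the leading principal component of all genes tested.

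Of the 10 S1 and S2 markers, 8 were called lower and none higher in edgeR, with a median log2 fold change of -1.17. Their sum was 4773, 3468 and 6902 CPM in cisplatin, against 14676, 14811 and 15202 CPM in control. All 8 thick ascending limb markers had negative log2 fold changes, 5 of them called, with a median of -1.15 and sums of 2256, 3476 and 1829 CPM in cisplatin, against 8708, 7005 and 7749 CPM in control. Of 5 markers of the last proximal segment (S3), 4 were lower, led by the amino acid transporter gene Slc7a13 (-3.41), and 1 higher. Of the 7 markers of the distal convoluted and connecting tubule, 6 were lower, led by Pvalb (-5.21), and 1 higher (median -1.04). Collecting duct markers were split. Principal cell markers were lower in 5 of 8 and higher in 1 (median -0.49; Aqp4 -1.11), and intercalated cell markers lower in 2 of 7 and higher in 1 (median 0.16; Slc4a1 -1.21), and the intercalated sums overlapped between the groups. Slc22a8, an organic anion transporter of the proximal tubule, averaged 197 ± 119 CPM in cisplatin and 878 ± 54 CPM in control, and the limb marker Egf 100.4 ± 31.1 CPM in cisplatin and 1465 ± 183 CPM in control (SD, n = 3 each). The part of these marker differences in the results for the 8 factors was not tested.

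Markers of other compartments moved as well. Podocyte markers were higher in 4 of 7, led by the slit diaphragm gene Nphs1 (log2 fold change 0.88), and fibroblast and pericyte markers in 3 of 6, led by Pdgfra (0.71), with no lower call in either list. Endothelial markers were lower in 6 of 7, led by Kdr (-1.05), and higher in 1.

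On the length-corrected scale of the authors' TPM, the factors covered a wide range of levels. In cisplatin Hnf4a averaged 209 ± 41 TPM and Pax8 122 ± 23 TPM, followed by Maf (55.8 ± 7.9), Pax2 (29.2 ± 5.4), Tfap2b (13.6 ± 2.6), Esrrg (12.8 ± 0.2), Lhx1 (6.77 ± 0.90) and Hnf4g (4.08 ± 0.50 TPM; SD, n = 3 each). The control order was the same, with 289 ± 15 TPM for Hnf4a, 72.7 ± 6.2 for Pax8, 66.9 ± 7.8 for Maf, 24.9 ± 1.8 for Pax2, 19.3 ± 2.5 for Tfap2b, 12.4 ± 2.1 for Esrrg, 9.79 ± 0.55 for Lhx1 and 4.08 ± 0.48 for Hnf4g. The ranges of Tfap2b and Esrrg overlapped in cisplatin but not in control. Those of Pax8 and Maf overlapped in control, at 66.02 to 78.1 and 58.5 to 74.0 TPM, and were apart in cisplatin, at 99.1 to 144 and 46.8 to 61.8 TPM. Esrrg and Lhx1 also overlapped in control. All other neighbours in both orders were apart.

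**Figure D3:**
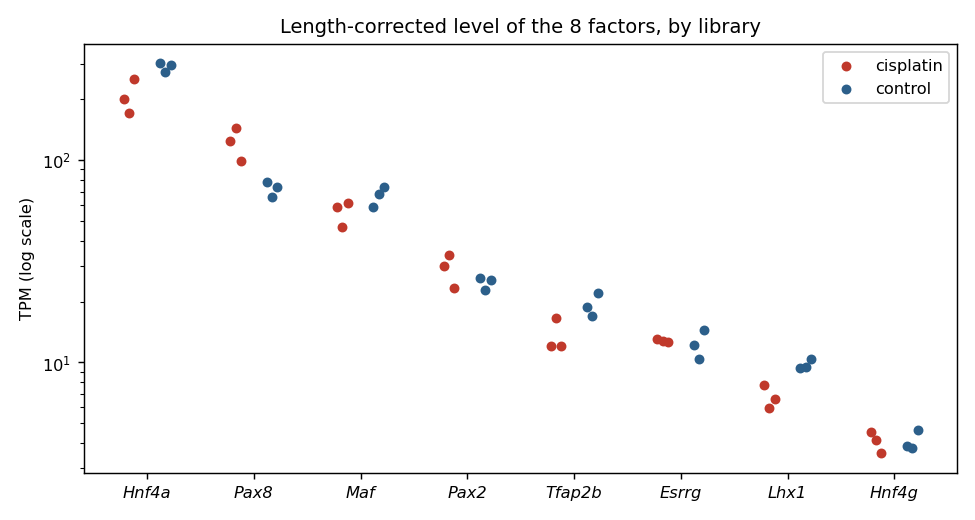
Length-corrected level of each factor in the authors' TPM on a log axis, ordered by the control mean. Each point is 1 library, with cisplatin left of control. Pax8 lies above Maf in cisplatin, whereas their values overlap in control.

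A search for the genes nearest to each factor over the 6 libraries used the root mean square difference of log2 CPM after centring each gene on its own mean. With 11146 candidates and 6 libraries, close matches arise for any factor, also for those not called. The distances were not tested and do not show that a gene is tied to a factor. Closest to Hnf4a were Tmem86b (0.027) and Qdpr, which encodes dihydropteridine reductase (0.030). Qdpr had 154, 131 and 202 CPM in cisplatin, against 267, 258 and 270 CPM in control. Closest to Pax8 were Ctbp2, which encodes a transcriptional corepressor (0.022), and Capza1, an actin capping protein gene (0.037). Closest to Maf were Ces2c, a carboxylesterase gene (0.032), and Fbxo36 (0.060). Tfap2b was closest to Prkca, which encodes protein kinase C alpha (0.058), and Mecom, itself a transcription factor of the tubule (0.060). Lhx1 was closest to Frs3 (0.047) and Slc9a7 (0.058), Hnf4g to Rbsn (0.048) and Zfp651 (0.051), Pax2 to Topbp1 (0.028) and Eps15l1 (0.037), and Esrrg to Stxbp5 (0.044) and Galnt3 (0.047).

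Of 26 further factors of the tubule and collecting duct, all tested, edgeR called 14 lower (53.8%) and 4 higher (15.4%), with a median log2 fold change of -0.48. The changes of Irx1, Emx1 and Elf3 were the largest. Irx1, an Iroquois factor of the intermediate nephron, averaged 35.3 ± 9.9 CPM in cisplatin and 97.7 ± 10.02 CPM in control (log2 fold change -1.47, SE 0.20; edgeR, adjusted p = 0.00126). Emx1, a homeobox gene, averaged 23.9 ± 4.8 CPM in cisplatin and 49.8 ± 5.7 CPM in control (log2 fold change -1.06). Elf3, an epithelial ETS factor, rose to 38.8 ± 2.3 CPM in cisplatin, against 18.7 ± 1.2 CPM in control (1.05; SD, n = 3 each). Limma on FPKM with a pseudocount of 0.1 or 1 called 9 and 8 lower, and edgeR called 2 higher without cisplatin replicate 1, control replicate 1 or control replicate 2.

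The genes named next were chosen from that list after their values were seen. Pou3f3, a POU domain factor (56.4 ± 7.0 CPM in cisplatin and 103.7 ± 3.1 CPM in control), and Irx2 (18.8 ± 5.4 CPM in cisplatin and 37.7 ± 6.2 CPM in control; SD, n = 3 each), known from the loop of Henle and distal nephron, also fell, as did Prdm16 (-0.96) and Cux1 (-0.79). Of the factors known from the collecting duct, Elf3 and Tfap2a were called higher, as was Tfcp2l1 (0.28; edgeR, adjusted p = 0.0382). The Tfcp2l1 call was lost under 5 of the 13 alternatives. Among them were the fits without cisplatin replicate 1 (0.104) or 2 (0.0846) and without control replicate 1 (0.137) or 2 (0.116). Its adjusted p ranged from 0.00900 to 0.137 over all alternatives. Gata2 (0.16), Gata3 (0.16), Grhl2 (0.04), Ehf (0.29) and the intercalated cell regulator Foxi1 (0.21) did not pass the test; Gata3 turned to -0.0058 and Grhl2 to -0.0255 without cisplatin replicate 2, and Grhl2 to -0.0254 without cisplatin replicate 1. Foxi1 passed without control replicate 3 (0.41; edgeR, adjusted p = 0.0424), and Ehf (0.42) and Gata2 (0.30) passed with scaling to library size.

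**Figure D4:**
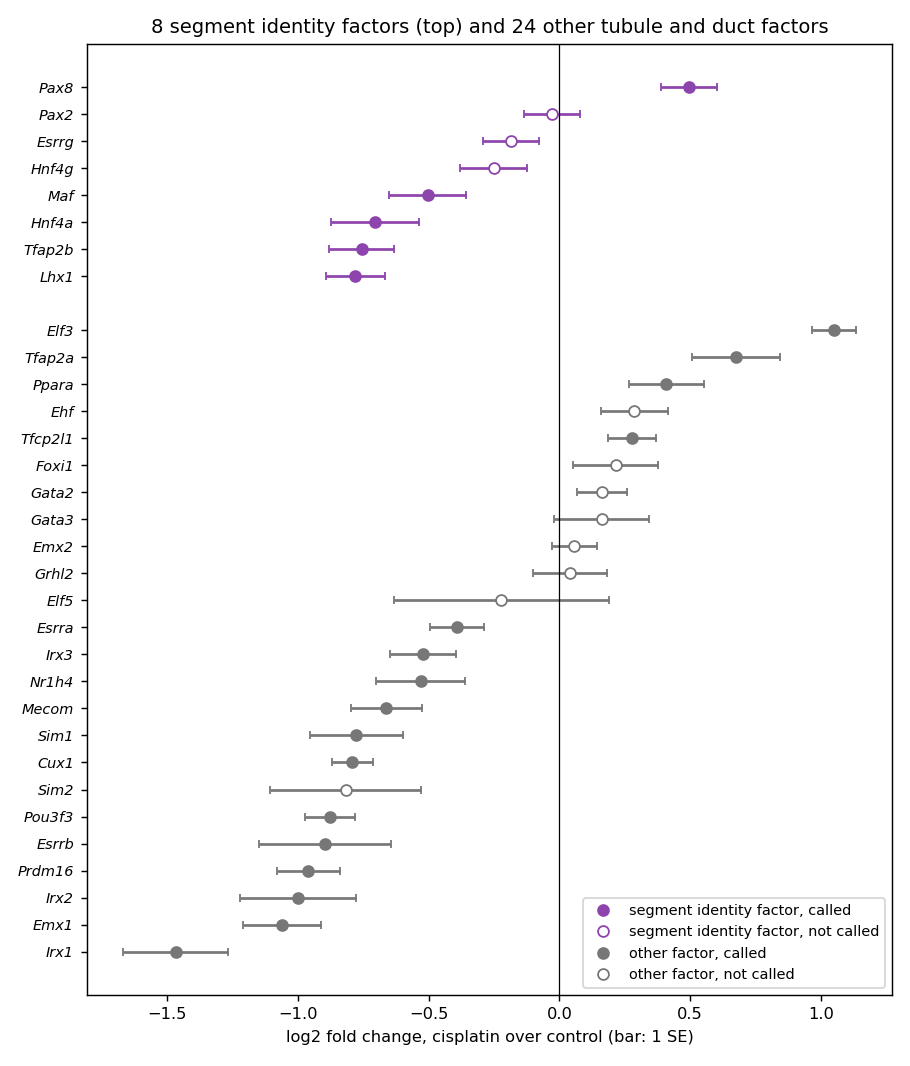
Log2 fold change of cisplatin over control, on a linear axis with 1 SE as the bar, for the 8 segment identity factors (top, purple) and 24 of the 26 other tubule and duct factors (bottom, grey). Filled points passed edgeR's test at an adjusted p under 0.05, and open points did not. Values run from -0.78 for Lhx1 to 0.50 for Pax8 in the upper block and from -1.47 for Irx1 to 1.05 for Elf3 in the lower.

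Of 30 listed paralogs, 11 were tested, 14 lay under the count filter and 5 were not found by symbol among the genes of the table. Among those tested, 5 were higher and 2 lower (median log2 fold change 0.26). Without cisplatin replicate 1 none was lower, and without any 1 of the control replicates 1 was. Esrra, Esrrb and Tfap2a also belong to the further tubule and collecting duct factors above, so their calls are counted in both lists. Maff and Mafk, small MAF proteins that lack an activation domain, rose while Maf fell: Maff averaged 25.0 ± 5.4 CPM in cisplatin and 2.46 ± 0.77 CPM in control (3.34 on the log2 scale, SE 0.24, with an adjusted p of 4.83e-05 in edgeR), and Mafk 67.0 ± 2.1 CPM in cisplatin and 37.7 ± 2.9 CPM in control (0.83, SE 0.08; 0.000125). Tfap2a, the paralog of Tfap2b, rose by 0.67 on the log2 scale (SE 0.17; edgeR, adjusted p = 0.0115), at low levels of 12.2 ± 1.9 CPM in cisplatin and 7.62 ± 1.28 CPM in control.

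Both relatives of Esrrg had lower values in cisplatin. Esrra averaged 96.8 ± 10.4 CPM in cisplatin and 127 ± 12 CPM in control (log2 fold change -0.39; edgeR, adjusted p = 0.0143), and Esrrb 21.0 ± 7.3 CPM in cisplatin and 39.1 ± 6.8 CPM in control (-0.90; 0.0258). Neither call was stable. That of Esrra was lost in edgeR without cisplatin replicate 1 (adjusted p = 0.0571) or control replicate 2 (0.0536). Limma on FPKM lost it too (0.0523 and 0.0542 with pseudocounts of 0.1 and 1). The Esrrb call was lost in edgeR without cisplatin replicate 1 (0.0740), control replicate 1 (0.0806) or control replicate 3 (0.0604). It was also lost with scaling to library size (0.0582) and with limma on FPKM at a pseudocount of 1 (0.0517). The ranges were 0.00233 to 0.0571 for Esrra and 0.000905 to 0.0806 for Esrrb over all alternatives. Lhx2, a relative of Lhx1 named after its values were seen, had 43 reads over cisplatin and 1 over control.

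Of 24 partners and cofactors tested, 7 were lower and 6 higher (median log2 fold change -0.10); scaling to library size gave 2 lower and 8 higher. Kctd1 and Kctd15, whose proteins repress AP-2 factors, rose while Tfap2b fell: Kctd1 averaged 58.3 ± 3.5 CPM in cisplatin and 34.4 ± 0.6 CPM in control (0.76 on the log2 scale, SE 0.07, with an adjusted p of 0.000129 in edgeR), and Kctd15 19.0 ± 1.8 CPM in cisplatin and 14.0 ± 0.5 CPM in control (0.44). Of the LIM domain complex through which Lhx1 acts, the core adaptor Ldb1 stood at 98.7 ± 1.8 CPM in cisplatin and 99.4 ± 1.4 CPM in control (-0.01, and 0.13 with scaling to library size), Ssbp4 rose (1.03; 95.8 ± 13.2 CPM in cisplatin and 46.8 ± 4.1 CPM in control) and Ssbp3 fell (-0.50; 51.3 ± 4.5 CPM in cisplatin and 72.5 ± 4.0 CPM in control). Ppargc1b, a coactivator of estrogen-related receptors, fell by 0.72 on the log2 scale. Nr0b2, which encodes the corepressor SHP of HNF4A, averaged 1.45 ± 0.80 CPM in cisplatin and 3.32 ± 0.18 CPM in control (-1.17, edgeR adjusted p = 0.0340). The call was lost without cisplatin replicate 1 (0.0769) and without control replicate 1, 2 or 3 (0.0768, 0.0917 and 0.0892). It was also lost in edgeR with scaling to library size (0.0641) and with limma on FPKM at a pseudocount of 0.1 (0.0691). The adjusted p of Nr0b2 ranged from 0.0101 to 0.0917 over all alternatives. The lower count of 7 was 4 without cisplatin replicate 1 or without cisplatin replicate 2, and 3 without control replicate 1 or without control replicate 3.

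Genes that act with Pax2, Pax8 and Lhx1 when nephrons form moved in both directions. Of 22 listed genes 15 were tested, and 8 were higher and 3 lower (median log2 fold change 0.47). Log2 fold changes of those tested ran from -1.33 to 3.88. The called genes named below are all higher, and the 3 lower ones are not named. The SOX factors led: Sox9, a factor of tubule repair, averaged 10.05 ± 2.42 CPM in cisplatin and 0.675 ± 0.242 CPM in control (log2 fold change 3.88, SE 0.29; edgeR, adjusted p = 4.19e-05), Sox11 2.39 ± 0.85 CPM in cisplatin and 0.226 ± 0.131 CPM in control (3.37) and Sox4 65.4 ± 12.8 CPM in cisplatin and 22.7 ± 3.8 CPM in control (1.53; SD, n = 3 each). Sox11 rested on 139 reads over cisplatin and 11 over control. Notch1 (0.66) and its target Hes1 (0.58), named after their values were seen, were higher as well. The progenitor factor Six2 had 2 reads over all cisplatin libraries and 1 over all controls, under the count filter.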

How the data were processed

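Total RNA of mouse kidney tissue was extracted by kit, per the labels' protocols. Reads were aligned with HISAT to GRCm38.p6, per the submitters' processing notes. No source used here names the counting program, annotation or strandedness. A single table of 19087 genes was deposited, with estimated counts, FPKM and TPM per library, per the file headers. The deposited estimated counts were treated as not normalized. Between 66.2% and 67.7% of them were whole numbers, zeros included, which does not settle whether they had been scaled. The deposited FPKM values (fragments scaled by gene length and depth) served as an alternative, and the deposited TPM values for levels and paralog ratios. The headers of the control columns hold letters and a replicate number only; they were taken as the controls because the remaining columns name cisplatin.

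Estimated counts were rounded, filtered with filterByExpr (minimum count 10; 14392 genes kept), scaled with TMM factors and tested with edgeR 4.0.16 (quasi-likelihood F test, robust, two-sided, group as the only term) in R 4.3.3, with Benjamini-Hochberg adjustment over all genes tested and a threshold of 0.05. CPM uses the same scaling. Genes with an FPKM above 0 in at least 3 libraries were tested with limma 3.58.1 on log2(FPKM + 0.1) and log2(FPKM + 1). DESeq2 1.42.0, other scalings, no filter, a replicate block and leaving out each library were further alternatives. In simulated counts at the depth of the cisplatin-control comparison (14392 genes) edgeR recovered 59.7%, 83.6% and 97.0% of genes changed by 1.5-fold, 2-fold and 4-fold, with 12 false calls. Only 67, 67 and 66 genes were changed by these folds, whereas 45.4% of genes were called in the data. The adjustment therefore differs, and these recoveries do not carry over to the data.

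Chi-square values over degrees of freedom ranged from 8.66 to 53.2 between replicates, so no pair was treated as 1 library; this does not show that libraries are separate animals. Promoter windows are RefSeq's (GRCm38.p6), cut to the 250 bases before each start. The 8 genes and all lists were chosen with earlier results of these data known. Of each list of related genes the 3 called genes of largest change that reached 1 CPM in either group were named, together with called genes of the rarer direction where 2 or fewer, and of each marker list 1; of each factor, the 2 genes of nearest pattern with a mean of at least 5 CPM. Genes outside this rule are named as chosen after their values were seen: the further tubule factors, Tfap2a, Lhx2, Csf1r, Kctd15, Ldb1, Ssbp3, Ppargc1b, Notch1, Hes1 and Six2. A few genes of the lists are counted but not reported here.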

Additional observations from a re-analysis of the deposited data

How the results depend on the processing

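Of the 8 factors, 6 kept their direction and their side of the threshold under all 13 alternatives. The exceptions were Maf, whose call was lost under 5, and Pax2, never called, whose log2 fold change turned to 0.11 with scaling to library size and to 0.10 with limma on FPKM at either pseudocount; over the fits that leave out 1 library it ran from -0.13 to 0.065. Hnf4a ran from -0.93 (without cisplatin replicate 3) to -0.56 (without cisplatin replicate 2). The count of factors lower was 3 or 4 and that of factors higher 1 throughout. Ldb1 turned to 0.13 with scaling to library size and to 0.12 with limma on FPKM at either pseudocount, and ran from -0.024 to 0.0043 over the fits without 1 library. In those fits the sign also turned for Gata3 (-0.0058 to 0.29), Grhl2 (-0.026 to 0.15), Emx2 (-0.023 to 0.12) and Elf5 (-0.67 to 0.14), none of them called.

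Of the 26 other tubule factors, limma on FPKM called 9 (pseudocount 0.1) and 8 (pseudocount 1) lower, against 14, and leaving out 1 library gave 11 to 15 lower and 2 to 4 higher. Of the 18 called factors, 9 were called in the same direction under every alternative: 7 lower and 2 higher. Paralogs called lower numbered 1 with scaling to library size, 1 and 0 with limma on FPKM at 0.1 and 1, and 0 to 2 without 1 library, against 2. Partners called lower numbered 2 with scaling to library size, 2 and 3 with limma on FPKM at 0.1 and 1 (beside 7 higher at either pseudocount), 4 with the replicate block, and 3 to 6 without 1 library, against 7. The cause was not tested. Over all genes, leaving out 1 library gave 2486 to 3614 higher and 2281 to 3591 lower.

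Replicate numbers gave no sign of pairing the libraries: same-numbered libraries correlated at 0.031, -0.13 and -0.13 in their deviations from the group means. Libraries of different number correlated at -0.015 to 0.15. With 3 libraries per group these values cannot decide whether same-numbered libraries were handled together. With the replicate number as a block, 2822 genes were higher and 2739 lower, and the same 5 of the 8 factors were called. For the paralog ratios the block leaves the differences of 0.48 and -0.52 the same by construction, and the exact sign-flip p was 0.5 for Hnf4g to Hnf4a and 0.25, the smallest possible, for Pax2 to Pax8. Without 1 library the differences ran from 0.34 to 0.73 and from -0.54 to -0.52.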
